A study of Mus musculus with 6 samples.

Results

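MYC and the proteins that share its partner MAX were followed in splenic germinal centre B cells as 10 genes: Myc, Mycn, Max, Mxd1, Mxd3, Mxd4, Mxi1, Mnt, Mlx and Mga. They were taken by symbol from 55401 genes in the count tables, each symbol matched 1 gene, and 9 of the 10 had enough reads to be tested. In the subset labelled DP, Myc was 11.7-fold higher than in the subset labelled DN, while the MYC antagonists Mxd4 and Mxd3 were 5.87-fold and 3.08-fold lower. Max, the shared partner, differed by 1.22-fold.

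The cells came from spleens of wild-type C57BL/6 mice that had been given sheep red blood cells into the peritoneal cavity, had been challenged with them again on day 5 and were analysed on day 12. All groups shared this treatment, and there was no unimmunised group. Each subset had 3 libraries of polyadenylated RNA, DN1 to DN3 and DP1 to DP3. The labels do not say which markers DN and DP stand for, give no age, and tie no library to a mouse, although the design text says that 3 mice gave both subsets. The spread that the p-values measure is therefore that of these libraries and may be technical. Because the RNA is from bulk cells, a lower level from fewer expressing cells and one from less RNA per cell cannot be told apart.

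MYC is a basic helix-loop-helix leucine zipper transcription factor that binds DNA as a dimer with MAX, most tightly at the E-box CACGTG. MXD proteins, MXI1 and MNT also bind E-boxes as dimers with MAX, and they recruit the SIN3 histone deacetylase complex to lower transcription there. MGA joins MAX to a Polycomb complex called PRC1.6, and MLX is a MAX-like protein that pairs with the nutrient-responsive factor MondoA, encoded by Mlxip. In germinal centres MYC is known for its brief appearance in B cells that have received help from T cells.

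The E-box itself stands in several promoters of this network. RefSeq promoter windows of GRCm38.p6, from 250 bases before to 50 bases after a start site, were present for 9 of the 10 genes, and 4 of these (44.4%) held CACGTG, a palindrome that reads the same on both strands. Myc was the gene without a window, so its promoter was not searched. Among all genes with such a window, 8.09% held CACGTG. The 4 were Max, Mlx, Mxd4 and Mnt. Their E-boxes are shown in capitals because they are the letters that the network's own proteins read, and because these genes went in different directions in DP. In Max the motif spans the start site, from base -3 to base 3. It begins at base -40 in Mlx, -123 in Mnt and -219 in Mxd4, counted from the start site. The last sequence is from Txnip, a known MondoA-MLX target, whose window held no CACGTG but 1 match to CACGNG followed after 5 bases by CNCGNG, a spacing known from carbohydrate response elements and searched on both strands. That pair was found in 0.426% of all genes with a window and in none of the 9 members with one. Each sequence is written 5′ to 3′ on the strand of its gene.
Max, chr12:76962246-76962291, minus strand: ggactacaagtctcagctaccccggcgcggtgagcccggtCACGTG
Mlx, chr11:101087210-101087289, plus strand: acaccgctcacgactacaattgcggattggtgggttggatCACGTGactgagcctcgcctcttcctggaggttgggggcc
Mxd4, chr5:34187884-34187960, minus strand: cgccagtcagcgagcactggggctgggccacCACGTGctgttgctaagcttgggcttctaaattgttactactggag
Mnt, chr11:74830761-74830846, plus strand: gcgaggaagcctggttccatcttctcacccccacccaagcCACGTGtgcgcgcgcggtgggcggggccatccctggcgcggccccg
Txnip, chr3:96557832-96557928, plus strand: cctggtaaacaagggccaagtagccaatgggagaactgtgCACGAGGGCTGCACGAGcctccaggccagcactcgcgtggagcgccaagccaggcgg
A match describes the letters in a window and does not show that a factor was bound there.

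The DN libraries held 8904415 to 11897360 gene counts and the DP libraries 17509384 to 20538024. A floor of 3 counts was worth 0.236 to 0.315 CPM (counts scaled to a common library size) in DN and 0.155 to 0.183 CPM in DP, for counting error only. B cell identity was clear in every library, with the B cell factor Pax5 falling from 638 ± 13.1 CPM to 474 ± 7.73 CPM in DP (SD, n = 3). All 12 germinal centre B cell markers examined were detected, and they summed to 3881 to 3911 CPM in DN and 2190 to 2237 CPM in DP. Of these, 10 were lower in DP, Mef2b was higher (0.32 ± 0.06, edgeR adjusted p = 6.88e-06) and Basp1 did not pass (edgeR adjusted p = 0.520). At an edgeR adjusted p below 0.05, 37.6% of all tested genes were lower in DP and 38.3% higher. These shares stand beside every count of markers given here. Macrophage and monocyte markers summed to 21.7 to 24.3 CPM in DN and 10.7 to 12.1 CPM in DP, with 5 of 6 tested genes lower in DP and Cd68 higher. Erythroid markers summed to 62.0 to 72.5 and 15.8 to 18.2 CPM, with all 6 tested genes lower. The 5 neutrophil markers summed to 1.36 to 1.57 CPM in DN and 0.363 to 0.428 CPM in DP. S100a9, the 1 of them tested, was lower in DP (-1.88 ± 0.42, edgeR adjusted p = 5.85e-05), and Ly6g was at 0 in all 6 libraries. The 7 T cell markers summed to 49.9 to 58.4 CPM in DN and 57.7 to 60.3 CPM in DP, nearly all of it Lck, which was higher in DP (0.19 ± 0.06, edgeR adjusted p = 0.00266). Cd4, the other one tested, had 9 to 14 counts per library and was lower in DP (-1.12 ± 0.37, edgeR adjusted p = 0.0054), and the receptor chains Cd3e, Cd3d, Cd3g and Trac had at most 13 counts in any library. These markers moved with the subsets, and their part in the results on the network was not tested.

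All 9 tested members passed the test between DP and DN, 4 of them higher and 5 lower in DP. Across all 11296 tested genes 75.9% passed, 38.3% higher and 37.6% lower in DP, so that passing the test does not set the members apart. The groups of 3 did not overlap for any of the 9, with DP above for 4 and below for 5, where 77% of all tested genes had no overlap, 39% with DP above and 38% with DP below. The test was the quasi-likelihood test of edgeR with Benjamini-Hochberg adjustment over all tested genes. Called means an adjusted p below 0.05. A change is the log2 ratio of DP to DN with its standard error, and a level is the mean CPM with its SD (n = 3). When the change was instead tested against a minimum of 1.5-fold, 3 members passed, Myc, Mxd3 and Mxd4, where 34.3% of all genes did. The calls rest in part on the scaling. With library totals alone, without factors for RNA composition, the median of all genes moved to -0.19, Myc was the only member called higher, and the 5 lower members remained called. Since this setting moves changes down, it is no check on the lower members.

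**Figure D1:**
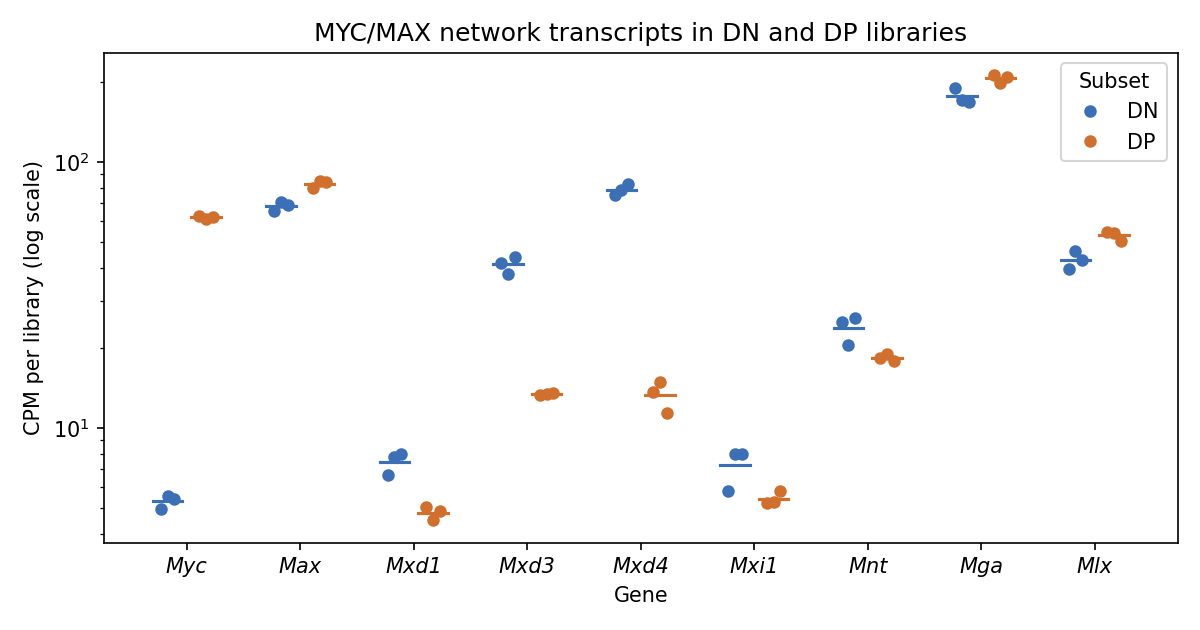
Level of 9 network genes in each library in CPM (log axis), with DN libraries in blue, DP libraries in orange, 1 point per library and a bar at the mean of 3. Myc lies near 5 CPM in DN and near 62 CPM in DP, and the DN and DP points of Mxd4 and Mxd3 lie far apart in the other direction. Mycn is not drawn because it had no counts.

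Myc, the activator of the network, stood at 4.95, 5.56 and 5.44 CPM in DN1 to DN3 and at 62.5, 61.3 and 62.3 CPM in DP1 to DP3. The lowest DP library was far above the highest DN library, and libraries within a subset differed little. The counts behind these levels were 63, 53 and 53 in DN and 1053, 1184 and 1020 in DP. The change was 3.55 ± 0.09 (edgeR adjusted p = 2.02e-41) with a 95% interval of 3.37 to 3.73, and it ranked 58 from the top among the 11296 tested genes. Myc (ENSMUSG00000022346.16) is a protein-coding gene on chromosome 15 from 61985391 to 61990374 on the plus strand of mm10. Pvt1, a long noncoding RNA gene beside Myc, averaged 6.14 ± 1.00 CPM in DN against 6.07 ± 1.23 CPM in DP. Its groups overlapped and its change was -0.01 ± 0.16 (edgeR adjusted p = 0.941), with a 95% interval of -0.33 to 0.30 that lies wholly below the interval of Myc.

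Mycn, the MYC paralogue of neural and embryonic tissue, had 0 counts in all 6 libraries and was not tested. Mycl, the other paralogue, had 4, 0 and 2 counts in DN and 2, 2 and 1 in DP, at or near the floor. Myc was thus the MYC family gene with more than a few reads in these cells, and neither paralogue allows a fold.

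Max, the obligate partner, was at 65.5, 70.9 and 69.0 CPM in DN and at 80.0, 84.8 and 84.0 CPM in DP. The groups did not overlap, but the gap between them was narrow. The change was 0.28 ± 0.05 (edgeR adjusted p = 1.37e-06), and it was 0.09 with library totals alone, where the gene was not called (adjusted p = 0.125). Max lies on chromosome 12 from 76937269 to 76962201.

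Mxd4, a repressor associated with resting and differentiating cells, had the lowest change of the members. It was at 75.0, 78.3 and 83.0 CPM in DN1 to DN3 and at 13.6, 14.9 and 11.4 CPM in DP1 to DP3, and every DN library was above every DP library. The change was -2.55 ± 0.07 (edgeR adjusted p = 7.51e-39), the 209th lowest of all tested genes. Mxd4 lies on chromosome 5 from 34173883 to 34187720. An annotated antisense gene, Gm42846, shares 514 exonic bases with it and had 0 counts in all libraries.

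Mxd3, the MXD protein known from proliferating cells in S phase, fell as well. Its levels were 41.7, 38.0 and 44.1 CPM in DN and 13.3, 13.4 and 13.5 CPM in DP. Its DP libraries were nearly identical and all far below DN. The change was -1.62 ± 0.08 (edgeR adjusted p = 5.17e-27). Exons of Prelid1 on the opposite strand share 105 bases with Mxd3, and Prelid1 changed by only -0.10 ± 0.05. The strand setting of the counting is not given in the sources used here.

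Mxd1, first described as a MYC antagonist of differentiating cells, and Mxi1, a close relative, were scarce in both subsets. Mxd1 was at 6.68, 7.77 and 8.01 CPM in DN and at 5.04, 4.51 and 4.89 CPM in DP, with no overlap and a change of -0.63 ± 0.15 (edgeR adjusted p = 1.57e-04). Mxi1 was at 5.82, 7.98 and 8.01 CPM in DN and at 5.22, 5.28 and 5.80 CPM in DP, so that DN1 and DP3 were almost equal. Its change of -0.40 ± 0.15 (edgeR adjusted p = 0.0146) had the largest p of the members. Without DN replicate 2 it was -0.32 (adjusted p = 0.0806), without DN replicate 3 it was -0.31 (adjusted p = 0.0890), and with DESeq2 it was -0.39 (adjusted p = 0.116).

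Mnt, the broadly expressed repressor, was at 25.2, 20.5 and 26.0 CPM in DN and at 18.4, 19.0 and 17.8 CPM in DP. DN2 was the lowest DN library and still above every DP library. The change was -0.38 ± 0.09 (edgeR adjusted p = 9.66e-05). The 5 repressors Mxd1, Mxd3, Mxd4, Mxi1 and Mnt were thus all lower in DP, by amounts from 1.30-fold for Mnt to 5.87-fold for Mxd4. Library totals alone cannot check this direction, because that setting moved the median of all genes down to -0.19.

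Mga, the largest protein of the network, was at 190, 171 and 169 CPM in DN and at 212, 199 and 209 CPM in DP. DN1 was the highest DN library and lay below DP2, the lowest DP library. The change was 0.22 ± 0.04 (edgeR adjusted p = 4.48e-06), 0.03 with library totals alone (adjusted p = 0.589) and 0.46 with trends in GC content and exon length removed. Mlx was at 39.5, 46.4 and 42.8 CPM in DN and at 54.8, 54.0 and 50.6 CPM in DP, without overlap. Its change was 0.32 ± 0.06 (edgeR adjusted p = 6.13e-06) and 0.12 with library totals alone (adjusted p = 0.0734). Psmc3ip on the opposite strand shares 385 exonic bases with Mlx and changed by 0.41 ± 0.04, so reads of the shared stretch are uncertain for Mlx.

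**Figure D2:**
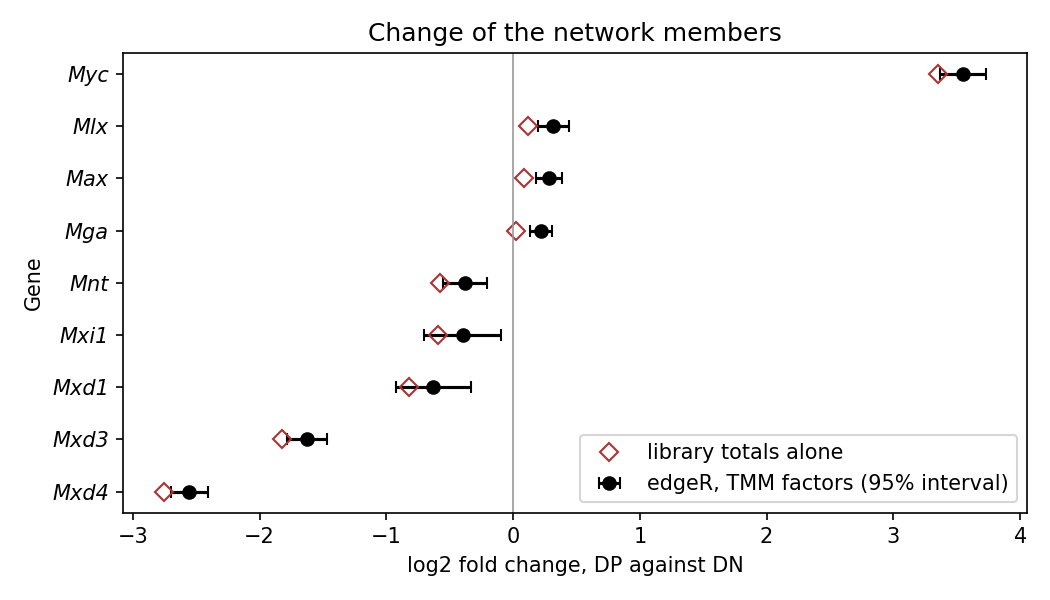
Log2 fold change of DP against DN for the 9 tested members, with filled points for edgeR with composition factors and bars for 95% intervals; open diamonds show library totals alone. Myc lies at 3.55 and Mxd4 at -2.55, and the diamonds of Max, Mlx and Mga lie close to 0.

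Levels of different genes were compared per exon length, as CPM divided by exon length in kilobases (RPKM). In DN the order was Mlx at 21.5 ± 1.72, Max at 19.0 ± 0.759, Mxd3 at 17.4 ± 1.30, Mga at 11.5 ± 0.775, Mxd4 at 9.29 ± 0.476, Mnt at 5.16 ± 0.641 and Myc at 1.96 ± 0.119 RPKM (SD, n = 3). Mxi1 at 1.07 ± 0.184 and Mxd1 at 1.06 ± 0.0998 RPKM came last. The ranges of Max and Mxd3 overlapped, as did those of Mxi1 and Mxd1, and the other neighbours were apart. In DP the order began with Mlx at 26.6 ± 1.12, Max at 23.1 ± 0.706 and Myc at 22.8 ± 0.231 RPKM, and the ranges of Max and Myc overlapped. Mga at 13.5 ± 0.444, Mxd3 at 5.66 ± 0.0446, Mnt at 3.98 ± 0.126 and Mxd4 at 1.57 ± 0.206 RPKM followed. Myc thus moved from the 7th place to the 3rd among the members. Per length, Myc RNA was 0.103 ± 0.00235 times Max RNA in DN and 0.991 ± 0.0387 times in DP. Both the order and this ratio depend on the length used. With the longest transcript in place of the union of exons, the ratio was 0.0645 ± 0.00148 in DN and 0.622 ± 0.0243 in DP, the DN order began with Max, Mxd3 and Mlx, and the DP order began with Max, Mlx and Myc. Myc was again 7th in DN and 3rd in DP.

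The MAX-binding partners were then set against each other within each library, a share that no library scaling can change. Myc and Mycn together made up 3.81%, 4.54% and 4.06% of the summed RPKM of Myc, Mycn, the 4 MXD genes (Mxd1, Mxd3, Mxd4 and Mxi1), Mnt and Mga in DN1 to DN3. In DP1 to DP3 they made up 46.5%, 46.6% and 46.8%. The MXD genes went from 58.9%, 61.0% and 62.3% in DN to 17.6%, 18.2% and 17.5% in DP. In DN the MXD genes together had 14.8 ± 1.14 times as much RNA per length as Myc, and in DP Myc had 2.62 ± 0.0593 times as much as they did. Mga kept a share of 22.3% to 25.9% in DN and 26.7% to 27.9% in DP, and Mnt held 9.80% to 11.4% and 7.87% to 8.48%. The sum itself, unlike the shares, depends on the library scaling. It was 45.1 to 49.3 RPKM in DN and 48.5 to 49.5 RPKM in DP, and these ranges overlap. That overlap holds for the union of exons only. With the longest transcript as length, the sum was lower in every DP library than in any DN library. Since the members were chosen as a family, these shares are given as a description, with no test.

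Among the 4 MXD genes, Mxd3 was the most abundant per length in both subsets, with 60.4% ± 2.04 of their RNA in DN and 65.0% ± 1.19 in DP. Mxd4 held 32.2% ± 1.15 in DN and 18.0% ± 2.13 in DP. Mxd1 and Mxi1 held 3.67% ± 0.321 and 3.70% ± 0.622 in DN, and 7.82% ± 0.528 and 9.16% ± 0.647 in DP. This split depends on the length used. With the longest transcript as length, Mxd3 held 54.1% ± 2.03 in DN and 60.7% ± 1.51 in DP. Mxd4 then held 38.9% ± 1.23 in DN and 22.7% ± 2.53 in DP.

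**Figure D3:**
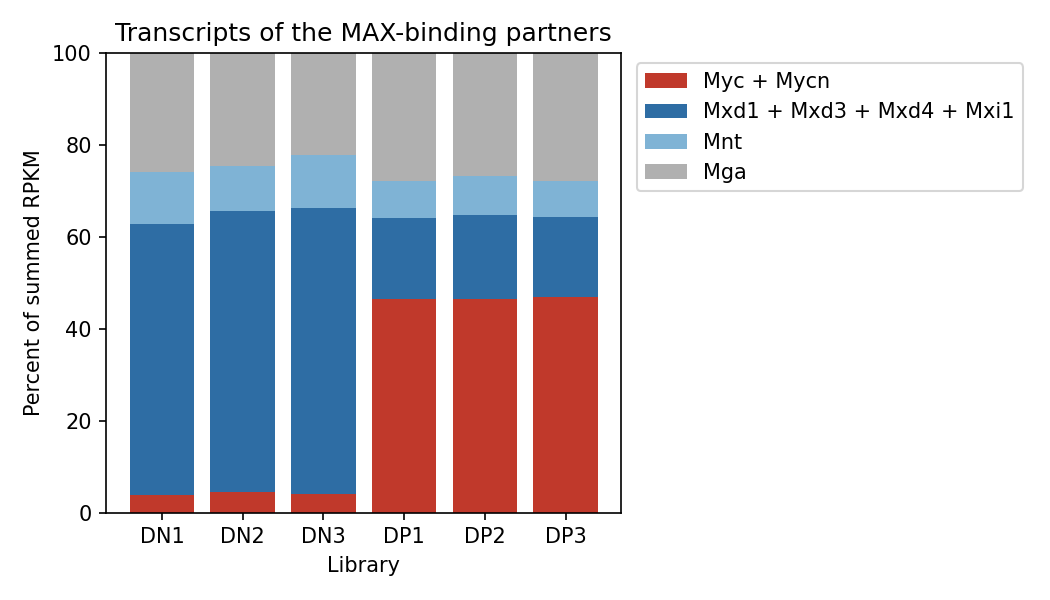
Share of each MAX-binding partner in their summed RPKM, as stacked bars for each of the 6 libraries. Myc with Mycn (red) fills 3.81% to 4.54% of the DN bars and 46.5% to 46.8% of the DP bars, and the MXD genes (dark blue) shrink from at least 58.9% to at most 18.2%.

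Of the MondoA arm of the network, Mlxip and the target Txnip were lower in DP, while Mlx, described above, was higher. Mlxip, which encodes MondoA, was at 57.3, 50.7 and 59.8 CPM in DN and at 42.0, 38.4 and 39.7 CPM in DP (-0.49 ± 0.06, edgeR adjusted p = 2.49e-10). Mlxip RNA was 0.315 ± 0.0463 times Mlx RNA per length in DN and 0.181 ± 0.00922 times in DP. With the longest transcript as length, it was 0.353 ± 0.0519 times in DN and 0.203 ± 0.0103 times in DP. Mlxipl, encoding the related factor ChREBP, had 1 count in DN1, 1 in DP3 and 0 in the other libraries. Txnip, an inhibitor of glucose uptake that MondoA and MLX activate, was at 49.7, 51.0 and 49.8 CPM in DN and at 13.8, 14.6 and 12.7 CPM in DP (-1.87 ± 0.07, edgeR adjusted p = 2.62e-31). Arrdc4, another such target, had at most 2 counts in any library. Klf10, a target of the same factors, was at 9.02 ± 0.381 and 8.05 ± 0.604 CPM, and its change of -0.16 ± 0.13 did not pass (edgeR adjusted p = 0.237). Of the 3 targets listed, 1 of 2 tested was thus called lower in DP, beside 37.6% of all tested genes. A count this small does not set the targets apart.

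Known activated targets of MYC were higher in DP almost throughout. Of 35 listed genes, all tested, 34 were called higher and 1 lower, where 38.3% and 37.6% of all tested genes were. Of the 35, 32 were called and at least 2-fold higher, where 12.3% of all tested genes were. The median change was 1.81 against 0.01 over all tested genes. The smallest p-values belonged to the mitochondrial chaperone Hspd1 (2.60 ± 0.04), the nucleolar proteins Nolc1 (2.62 ± 0.04) and Gnl3 (2.92 ± 0.05), and nucleolin, Ncl (2.16 ± 0.04). Gnl3 rose from 53.5 ± 4.17 to 405 ± 10.9 CPM. The 1 gene that fell was E2f2, a cell cycle transcription factor, from 123 ± 3.42 to 44.9 ± 0.856 CPM (-1.45 ± 0.05, edgeR adjusted p = 6.07e-35). The list was drawn up with an earlier analysis of these libraries known, so its direction is not independent evidence.

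Genes listed here as repressed by MYC with MIZ1 were mostly too low to read, and the route was not tested for any of them. Of 7 listed, 3 were tested, 1 was called lower and none was called higher, with a median of -0.25. Among all tested genes 37.6% were called lower and 38.3% higher. Gadd45a, a growth arrest and DNA damage gene, went from 6.57 ± 0.543 to 3.21 ± 0.372 CPM (-1.03 ± 0.17, edgeR adjusted p = 2.06e-07). Cdkn1b, which encodes the cell cycle inhibitor p27, was at 7.44 ± 0.327 and 6.61 ± 0.462 CPM (-0.17 ± 0.14, edgeR adjusted p = 0.259), and Ndrg1 at 6.74 ± 0.741 and 5.59 ± 0.530 CPM (-0.25 ± 0.15, edgeR adjusted p = 0.117). Cdkn1a had 3, 5 and 3 counts in DN and 10, 13 and 13 in DP, and Cdkn1c had 12, 6 and 5 in DN and 7, 5 and 2 in DP. The DP libraries were deeper, and in CPM Cdkn1a averaged 0.356 ± 0.150 in DN and 0.687 ± 0.101 in DP. Cdkn1c averaged 0.695 ± 0.222 CPM in DN and 0.266 ± 0.147 CPM in DP. The groups did not overlap for either gene, in opposite directions, and neither gene was tested. Cdkn2b and Ndrg2 had at most 4 counts in any library. With library totals alone all 3 tested genes were called lower.

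Of 18 tested genes for cofactors that MYC recruits, 12 were called higher and 3 lower, with a median of 0.35. The share called either way was near the 75.9% of all tested genes, of which 38.3% were higher and 37.6% lower. The helicases Ruvbl1 and Ruvbl2, shared by the TIP60 and INO80 complexes, rose from 251 ± 4.17 to 708 ± 0.544 CPM and from 153 ± 3.89 to 384 ± 12.1 CPM. Wdr5, a docking protein for MYC on chromatin, rose from 49.2 ± 0.966 to 106 ± 4.31 CPM, and the acetyltransferase gene Kat2a rose by 1.80 ± 0.09, from 11.9 ± 2.17 to 41.4 ± 2.84 CPM. The 3 that fell were the acetyltransferase genes Ep300 (-0.38 ± 0.04) and Crebbp (-0.15 ± 0.05) and the elongation cyclin Ccnt1 (-0.11 ± 0.05, edgeR adjusted p = 0.0372). Without replicate 2 of both subsets only 1 of these was called, and with library totals alone 6 genes were called lower.

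Of 17 tested genes for regulators of MYC protein stability, 10 were called higher and 5 lower, with a median of 0.37, beside 38.3% and 37.6% of all tested genes. The ubiquitin ligase gene Huwe1 rose by 0.77 ± 0.03 and the nucleolar deubiquitinase gene Usp36 by 0.84 ± 0.04. The 5 lower genes were Ppp2r5a, a phosphatase subunit (-0.62 ± 0.04), the kinase gene Gsk3b (-0.35 ± 0.07), the phosphatase inhibitor Cip2a (-0.28 ± 0.05) and the deubiquitinase genes Usp28 (-0.27 ± 0.07) and Usp37 (-0.21 ± 0.05), the last named after its values were seen. The list holds genes that stabilise MYC and genes that destabilise it, so its count has no single direction for the protein.

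The corepressor that MXD proteins and MNT recruit changed in a mixed way. Of 15 tested genes of the SIN3 complex, 4 were called higher and 9 lower, with a median of -0.16, beside the same 38.3% and 37.6%. The scaffold genes Sin3a (-0.13 ± 0.04) and Sin3b (-0.16 ± 0.06), named after their values were seen, changed little. Arid4a (-0.91 ± 0.04) and Arid4b (-1.05 ± 0.04), which encode chromatin-binding subunits, fell most. The 4 that rose were the deacetylase gene Hdac2 (0.95 ± 0.05), the histone chaperone gene Rbbp7 (0.82 ± 0.04), Sap18 (0.43 ± 0.04) and Sap130 (0.37 ± 0.06).

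Partners of MGA in the PRC1.6 complex were mostly higher in DP. Of 11 genes, 9 were called higher and 1 lower, with a median of 0.62, where 38.3% and 37.6% of all tested genes were called. The smallest p-values belonged to Tfdp1, a dimer partner of E2F proteins (0.83 ± 0.04), Wdr5, L3mbtl2, which reads histone marks (0.91 ± 0.05), and Pcgf6, the Polycomb ring finger protein that defines the complex (0.85 ± 0.08). Pcgf6 went from 17.3 ± 1.16 to 31.2 ± 2.13 CPM. Tfdp2, a relative of Tfdp1, was the 1 that fell, from 9.38 ± 0.364 to 5.45 ± 0.625 CPM (-0.78 ± 0.14, edgeR adjusted p = 8.49e-07).

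Proliferation genes, listed because Mxd3 is tied to S phase, did not share a direction. Of 9 genes, 5 were called higher in DP and 3 lower, with a median of 0.26, again beside 38.3% and 37.6%. Ccnb1 (0.64 ± 0.04), Cdk1 (0.55 ± 0.04) and Mcm5 (0.26 ± 0.04) rose, while Mki67 (-0.54 ± 0.04), Pcna (-0.15 ± 0.04) and Top2a (-0.08 ± 0.03, edgeR adjusted p = 0.0223) fell. These changes were all smaller than the fall of Mxd3, and any link between them and that fall was not tested.

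**Figure D4:**
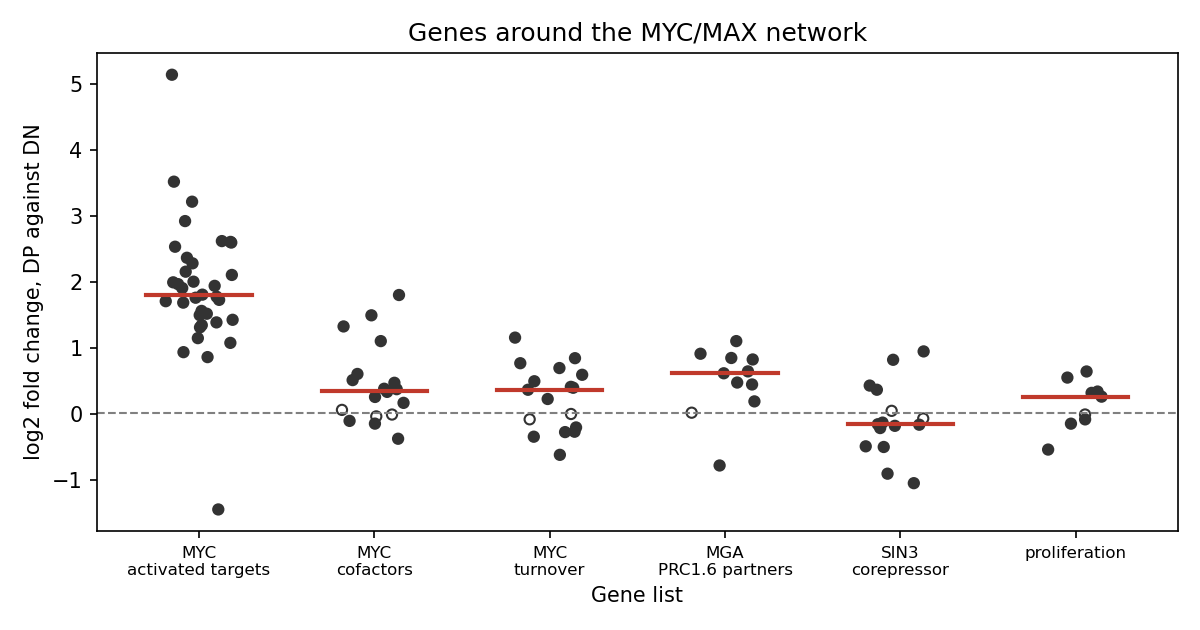
Log2 fold change of DP against DN for the tested genes of 6 lists, 1 point per gene, filled where the edgeR adjusted p was under 0.05; red bars are list medians and the dashed line is the median of all tested genes. MYC activated targets have a median of 1.81, and the other lists have medians from -0.16 to 0.62.

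The genes whose profile over the 6 libraries was most like that of a member were taken from 8218 candidate genes by the root mean square distance between centred log2(CPM + 0.5) values. The nearest to Myc were Srm, which encodes spermidine synthase (distance 0.0722), Batf (0.0972), Socs3 (0.0994), Nefh (0.111) and Fabp5 (0.122). Srm went from 4.85 ± 0.609 to 55.0 ± 1.95 CPM (3.52 ± 0.10, edgeR adjusted p = 1.17e-39). Socs3 averaged 0.339 CPM in DN, about the floor of 3 counts, against 8.81 CPM in DP, and its fitted change of 4.64 ± 0.27 was above that of Myc. At that level the 0.5 added before the logarithm shrinks its difference, so its small distance is no sign of a like change. The nearest to Mxd4 were Oasl2, Eif2ak3, Rnase6, Rell1 and Lrrc56, at distances from 0.0649 to 0.108. Eif2ak3, which encodes the stress kinase PERK, went from 326 ± 2.23 to 59.8 ± 2.28 CPM (-2.45 ± 0.04). With only 2 subsets such likeness, apart from that of Socs3, mostly means a similar difference between them.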

How the data were processed

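Per the labels' protocols, stranded libraries of polyadenylated RNA were made from sorted cells. Per the submitters' processing notes, Trim Galore 0.6.6, STAR 2.7.10a, HTSeq 0.13.5 and the mm10 build were used; the sources used here do not give the annotation release, the strand setting or any use of molecular identifiers, which would affect overlapping genes and counting error. The deposited values are raw counts per gene, 1 table per library; 5 summary rows (12.6% of counts in DN, 9.56% in DP on average) were left out. Libraries were grouped by title.

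The test was edgeR 4.0.16 (R 4.3.3) with TMM factors, filterByExpr (minimum count 10), robust estimation and no block, tested on simulated data first. CPM used TMM-adjusted library sizes; RPKM used the union of exons in GENCODE M21 (mm10). Limma 3.58.1 and DESeq2 1.42.0 gave alternatives. Within a subset every pair of libraries differed by more than sampling noise (chi-square per degree of freedom 1.96 to 3.26). The members and lists were chosen with earlier results of these data known. The genes named were the members, Pvt1, all genes of the 3 short lists, up to 4 genes with the smallest p and up to 4 called against the majority in each other list, and the 5 profiles nearest to Myc and to the lowest member. In the motif search both strands were read. Of the genes this rule names, 1 is not reported here.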

Additional observations from a re-analysis of the deposited data

How the results depend on the processing

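Calls and directions of Myc, Mxd3 and Mxd4 held under all 14 alternatives and with any library left out (Myc 3.35 to 3.62, Mxd3 -1.82 to -1.55, Mxd4 -2.75 to -2.48 over the alternatives). With a minimum fold of 1.5, 1 member was called higher and 2 lower, among 1964 and 1912 genes; the lists then had 4 and 0 (cofactors), 3 and 0 (turnover), 2 and 2 (SIN3), 4 and 0 (PRC1.6), 0 and 0 (proliferation), and Mlxip was not called (0 lower). With library totals alone, 1 member was called higher, and 6 cofactors, 2 PRC1.6 genes, 3 MIZ1 genes and 2 MondoA targets were called lower; 38.0% of called genes were then higher in DP, against 50.5%. With no filter, 1 cofactor, 5 SIN3 genes, 1 proliferation gene and 2 MIZ1 genes were called lower, and with DESeq2 1 cofactor was. With no filter, with DESeq2 or at an adjusted p of 0.01, 4 members were called lower in place of 5. The cause was not tested, except that a minimum fold and a lower threshold are stricter tests. With 1 library, or 1 library of each subset, left out, 4 members were called higher and 4 to 5 lower, 1 to 3 cofactors lower, and 0 to 1 MIZ1 genes higher and 1 to 2 lower. The share of Myc and Mycn was 3.57% in DN and 45.7% in DP with the longest transcript as length, and 5.46% and 64.3% with Mga left out. Without 1 library, and with Mga and the union of exons kept, that share was 3.93% to 4.30% in DN and 46.5% to 46.7% in DP. With the longest transcript as length, the MXD genes held 68.5% in DN and 21.8% in DP. They then had 19.3 times the RNA of Myc in DN, and Myc had 2.09 times theirs in DP.

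Same-numbered DN and DP libraries deviated together by r = 0.0605, -0.0039 and -0.0142, and only replicate 1 of DN correlated best with its own number, so the numbers were not taken as pairs. With a replicate block 4338 genes were called higher and 4251 lower, and 4 members higher and 5 lower.

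Mycn, Mycl, Mlxipl and Arrdc4 had few or no reads in these libraries, which allows no comparison.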

Other observations

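Genes that mark plasma cells, among them a repressor known to act on the Myc gene, were read in the same libraries. Of 6 listed genes, 5 were tested, 4 were called higher in DP and 1 lower, where 38.3% of all tested genes were called higher and 37.6% lower. Irf4, a transcription factor of plasma cell differentiation, went from 12.1 ± 0.586 to 70.5 ± 1.43 CPM (2.54 ± 0.07, edgeR adjusted p = 1.41e-38). Prdm1, which encodes the repressor BLIMP1, had 14, 9 and 17 counts in DN and 63, 60 and 60 in DP (1.47 ± 0.26, edgeR adjusted p = 7.52e-07). The surface proteoglycan gene Sdc1 had 2, 7 and 5 counts in DN and 26, 32 and 22 in DP, and Xbp1 rose by 0.31 ± 0.05. Jchain, the joining chain of secreted immunoglobulin, went the other way, from 277 ± 5.80 to 155 ± 2.38 CPM (-0.84 ± 0.04). Tnfrsf17, which encodes the plasma cell receptor BCMA, had 3 counts in DN3 and 0 in the other libraries.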
